A study of Mus musculus with 2 samples.

Results

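The 8 genes described here encode plasma-membrane carriers of amino acids and glutamate: Slc3a2, Slc7a8, Slc7a11, Slc7a5, Slc1a3, Slc1a5, Slc7a1 and Slc38a2. They were found by gene symbol and make up 8 of the 31053 features counted. The set was chosen with earlier results of these data known. The study has 1 group of cells, hair follicle stem cells sorted from the skin of wild-type C57BL/6;CD1 mice at postnatal day 32, when hair follicles grow (anagen). Sorting used the surface protein CD34 and a green fluorescent histone (H2BGFP) driven by the K14 promoter, which is active in basal keratinocytes. Both libraries, replicates 1 and 2 of that group, were made with the 10x Chromium 3′ kit, version 3. Nothing in the labels says that they came from separate animals, so the p-values below measure the spread between sums of these libraries, which may be technical.

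Amino acid carriers of this kind fall into families by what they move and what drives them. The SLC7 light chains exchange one amino acid for another and most reach the cell surface only when bound to the heavy chain Slc3a2 (CD98), whereas the SLC1 carriers bring in glutamate or neutral amino acids with sodium. Cystine taken up by the Slc3a2 and Slc7a11 pair is paid for with exported glutamate and feeds the synthesis of glutathione, and Slc1a3 can bring glutamate back in. Slc7a1 carries arginine and lysine, and Slc38a2 carries small neutral amino acids, glutamine among them.

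Slc7a11, which had the largest change between states, is also a known target of the amino acid response, in which ATF4 binds a composite element with the letters TGATGNAA. The promoter window in RefSeq (GRCm38.p6, 250 bases before and 50 after the start of the transcript) was found for 6 of the 8 genes and not for Slc1a5 and Slc7a5. Among the 7 windows of those 6 genes, only that of Slc7a11 held the letters, and it held them in both orientations. The bases before its start site, chr3:50443614-50443863 on the minus strand, are shown with both matches in capitals, TGATGCAA beginning at position -66 and TTGCATCA, the other orientation, at -47.
Slc7a11: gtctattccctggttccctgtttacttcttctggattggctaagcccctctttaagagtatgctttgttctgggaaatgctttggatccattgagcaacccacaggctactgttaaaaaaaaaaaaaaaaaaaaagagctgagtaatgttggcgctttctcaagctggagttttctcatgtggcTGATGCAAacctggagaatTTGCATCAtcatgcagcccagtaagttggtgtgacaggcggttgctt
Searched on both strands, where the forms TGATGNAA and TTNCATCA do not overlap here, at least 1 match was present in 3.97% of 32851 promoter windows of the same length, and 2 or more in 0.07%. Of 21 genes on a list of amino acid response genes that have a window, 7 held a match. A match describes letters and does not show that a factor binds there, and bases outside the windows were not searched.

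In GENCODE M21 (GRCm38), Slc3a2 lies at chr19:8706882-8723369, Slc7a8 at chr14:54722209-54781946, Slc7a11 at chr3:49892526-50443614, Slc7a5 at chr8:121881150-121907694, Slc1a3 at chr15:8634124-8710764, Slc7a1 at chr5:148327410-148399904 and Slc38a2 at chr15:96687392-96699730, all on the minus strand. Slc1a5 lies at chr7:16781340-16798274 on the plus strand. Slc7a5 overlaps Gm20388 and Slc7a11 overlaps Gm37854, both on the opposite strand, and whether counting used the strand is not given in the sources used here. Because the kit tags one end of each transcript, a UMI count (unique molecular identifiers, each standing for a captured molecule) does not scale with transcript length, and counts of different genes are set side by side on that basis.

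Keeping barcodes of 1000 or more genes whose mitochondrial UMIs made up no more than 10% left 3918 of 6592 in library 1 and 3041 of 5080 in library 2, with medians of 9955 and 9797 UMIs. The libraries share 11 barcodes, 3 of them kept in both. Cells with 3 or more markers of fibroblasts, immune cells, endothelium or melanocytes were set aside, and 3829 and 2975 cells remained as keratinocytes. Each keratinocyte was placed by its highest marker score in 1 of 8 states, named here by 2 of the marker genes that gate it, and no carrier gene was used in a gate. In all, 2618 cells (68.4%) and 2180 cells (73.3%) were placed. The score of 438 and 288 keratinocytes lay within 0.1 of the threshold of 0.5, so a state is a range of scores and not a cell type. Among placed cells, 784 and 576 had a second state score less than 0.5 below their highest. Cells were also split by 12 S-phase and 12 G2/M markers into non-cycling, S and G2/M cells, and UMIs were summed per state, cycle class and library wherever both libraries had at least 20 cells, giving 34 sums.

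The non-cycling cells of 7 states entered the comparison of states. Library 1 and library 2 held 310 and 279 cells in the Fgf5/Acta2 state, 269 and 207 in Edn2/Dio3, 261 and 235 in Gdf10/Nppc, and 455 and 201 in Wfdc18/Pthlh. The smaller states were Krtdap/Sostdc1 with 110 and 109 cells, Krt24/Grem1 with 44 and 206, and Defb6/Krt79 with 31 in each. Krt5, Krt14, Cdh1, Epcam and Itga6, which mark keratinocytes, had UMIs in every state, with a lower summed level in Fgf5/Acta2 (2862 and 2808 CPM, counts per 1000000 UMIs) and Edn2/Dio3 (3540 and 4024 CPM) than in the other 5 states (8802 to 14816 CPM). The 6 fibroblast markers summed to 12.03 and 5.48 CPM in Fgf5/Acta2, against 44322 and 37308 CPM in the cells set aside as fibroblasts, taken over all cycle classes. The 3 gate markers of Fgf5/Acta2 summed to 2734 and 2499 CPM in that state and to 1210 and 1059 CPM in Edn2/Dio3. In Gdf10/Nppc they summed to 78.4 and 65.6 CPM. Fgf5/Acta2 and Edn2/Dio3 thus share gate markers and are not sharply separate.

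By mean level, 6 of the 8 carriers were highest in the Fgf5/Acta2 state and next highest in Edn2/Dio3, and Slc3a2, Slc7a8, Slc7a11, Slc1a3 and Slc7a1 were lowest in Krt24/Grem1. A joint test of the 7 non-cycling states (edgeR's quasi-likelihood F test with Benjamini-Hochberg adjustment over all 10374 genes fitted, threshold 0.05) called 7 of the 8 genes, against 45.4% of all genes fitted. Slc7a5 was not called (adjusted p = 0.2438). All 8 genes passed the expression filter.

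**Figure D1:**
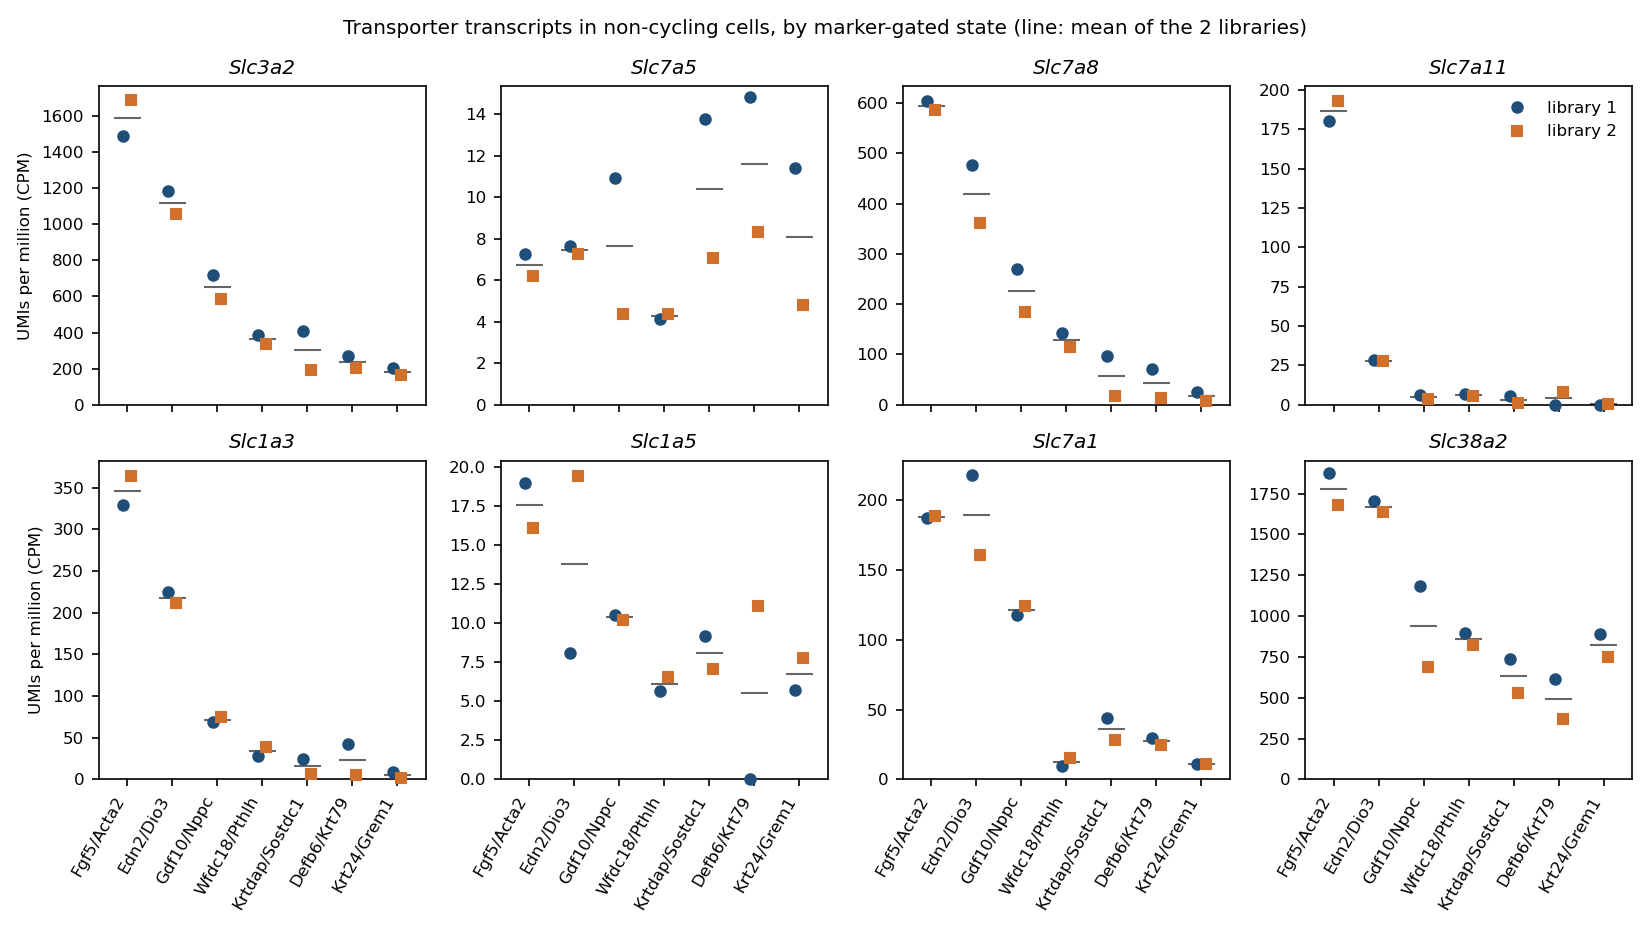
Level of each carrier gene (y axis, CPM, linear from 0) in the non-cycling cells of 7 follicle states (x axis), 1 panel per gene. Points are the 2 libraries and the line is their mean. Slc3a2, Slc7a8 and Slc1a3 step down from Fgf5/Acta2 to Edn2/Dio3, Gdf10/Nppc and Wfdc18/Pthlh without overlap, Slc7a11 is high in Fgf5/Acta2 (180.1 and 193 CPM), and Slc7a5 and Slc1a5 stay under 20 CPM.

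Slc3a2, the shared heavy chain, had the highest level of the 5 SLC3 and SLC7 genes described here in every state. Its level in non-cycling cells of libraries 1 and 2 was 1490 and 1690 CPM in Fgf5/Acta2, 1182 and 1057 in Edn2/Dio3, 720 and 585 in Gdf10/Nppc, and 389 and 336 in Wfdc18/Pthlh. It was 409 and 194 CPM in Krtdap/Sostdc1, 269 and 203 in Defb6/Krt79 and 206 and 163 in Krt24/Grem1. The upper 4 states did not overlap, whereas Wfdc18/Pthlh, Krtdap/Sostdc1, Defb6/Krt79 and Krt24/Grem1 each overlapped the next. The mean was 8.63-fold higher in the highest state (1590.2 ± 141 CPM, SD, n = 2 libraries) than in the lowest (184 ± 30.1 CPM). At a common depth of 5000 UMIs, 99.0% and 99.6% of Fgf5/Acta2 cells had a UMI of Slc3a2, against 59.5% and 52.9% of Krt24/Grem1 cells.

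Slc7a8, a light chain that exchanges large and small neutral amino acids, followed the heavy chain. It stood at 604 and 585 CPM in Fgf5/Acta2, 477 and 362 in Edn2/Dio3, 269.9 and 184 in Gdf10/Nppc and 143 and 114 in Wfdc18/Pthlh, and these 4 states did not overlap. Its lower levels differed between the libraries, with 96.3 and 18.2 CPM in Krtdap/Sostdc1, 71.7 and 13.9 in Defb6/Krt79 and 25.7 and 7.79 in Krt24/Grem1. Library 1 was the higher in each of these 3 states. Non-cycling cells set aside by fibroblast markers had 9.27 and 20.4 CPM (6 and 9 UMIs) and those set aside by immune markers 160.6 and 23.5 CPM (18 and 4 UMIs), so the libraries did not keep 1 order there. The part of RNA free in the droplets in these low levels was not tested. At 5000 UMIs a cell, Slc7a8 had a UMI in 91.0% and 93.9% of Fgf5/Acta2 cells, 7.14% and 2.14% of Krt24/Grem1 cells, and 8.33% and 3.45% of fibroblast-marker cells.

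Slc7a11, the cystine and glutamate exchanger, had the steepest pattern of the 8. It was 180.1 and 193 CPM in Fgf5/Acta2 (mean 187 ± 9.11, SD, n = 2), 28.3 and 27.9 CPM in Edn2/Dio3, and at most 8.34 CPM in the other 5 states. The Fgf5/Acta2 level was 6.36 and 6.91 times that of Edn2/Dio3 in the same library, and 27.6 and 35.1 times that of Wfdc18/Pthlh. In Krt24/Grem1 there were 0 UMIs in library 1, which allows up to 8.56 CPM, and 1 UMI in library 2, so Fgf5/Acta2 was at least 21.0-fold higher in library 1 and 322 times higher in library 2, with a counting interval of 57.6 to 12750. Both libraries thus had Slc7a11 far above every other state in Fgf5/Acta2, and Edn2/Dio3 was the only other state that did not overlap the rest.

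The share of cells with a Slc7a11 UMI gave the same order. Among non-cycling Fgf5/Acta2 cells it was 44.2% and 58.8% as counted, at median depths of 10080.5 and 9781 UMIs. After thinning each cell to 5000 UMIs it was 37.8% (exact 95% Clopper-Pearson interval 32.2 to 43.7) and 43.0% (36.9 to 49.2). The thinned share was 13.8% and 10.1% in Edn2/Dio3, 2.82% and 3.83% in Wfdc18/Pthlh, and 2% and 0.917% in Gdf10/Nppc. In Krt24/Grem1 it was 0 of 42 and 0 of 187 cells, which allows up to 7.14% and 1.60% where a count of 0 is given a limit of 3 cells (the exact 95% upper bounds are 8.41% and 1.95%). In fibroblast-marker cells it was 0 of 48 and 0 of 29 non-cycling cells, but their S and G2/M cells held 5 and 3 UMIs. Over all fibroblast-marker cells that is 6.21 and 4.48 CPM, near the levels of Wfdc18/Pthlh and Gdf10/Nppc. These intervals cover counting error only. Immune-marker cells, of which there were 10 and 15, held 25 Slc7a11 UMIs in each library over all cycle classes (223 and 124 CPM). The 7 immune markers summed to 16.5 and 51.2 CPM in Fgf5/Acta2, against 59226 and 58536 CPM in those immune-marker cells.

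Slc7a5, the light chain that brings in leucine and other large neutral amino acids, was scarce. It ranged from 4.14 and 4.39 CPM in Wfdc18/Pthlh to 14.8 and 8.34 CPM in Defb6/Krt79, and no state was called against the others. Among the UMIs of 6 light chains that bind Slc3a2 (Slc7a5, Slc7a6, Slc7a7, Slc7a8, Slc7a10 and Slc7a11), Slc7a8 therefore made up most in the 4 larger states. Its share was 75.2% and 73.4% in Fgf5/Acta2, 90.1% and 87.0% in Edn2/Dio3, 90.7% and 88.1% in Wfdc18/Pthlh, and 83.3% and 77.0% in Gdf10/Nppc.

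The second light chain differed by state. In Fgf5/Acta2 it was Slc7a11, with 22.4% (20.8 to 24.1) of 2537 light-chain UMIs and 24.2% (22.4 to 26.1) of 2180, against 5.35% and 6.72% in Edn2/Dio3 and 4.14% and 4.24% in Wfdc18/Pthlh. In Gdf10/Nppc it was Slc7a6, a carrier of cationic and neutral amino acids, with 11.4% and 19.3%, beside 1.98% and 1.63% for Slc7a11. In Krt24/Grem1, Slc7a6 had the larger share, 51.9% of 27 UMIs and 65.7% of 67, beside 33.3% and 19.4% for Slc7a8. In the other small states the libraries differed, Slc7a6 having 25.3% of 170 and 51.9% of 54 UMIs in Krtdap/Sostdc1 and 18.6% of 43 and 35.3% of 17 in Defb6/Krt79, beside 61.8% and 33.3%, and 67.4% and 29.4%, for Slc7a8. On the CPM scale Slc7a6 was 36.9 and 46.2 in Gdf10/Nppc, 39.97 and 26.4 in Krt24/Grem1, 11.4 and 11.7 in Fgf5/Acta2 and 3.70 and 5.49 in Wfdc18/Pthlh, so its share in Krt24/Grem1 sat beside a level near that of Gdf10/Nppc and a low level of Slc7a8. These shares are descriptions and were not tested between states.

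**Figure D2:**
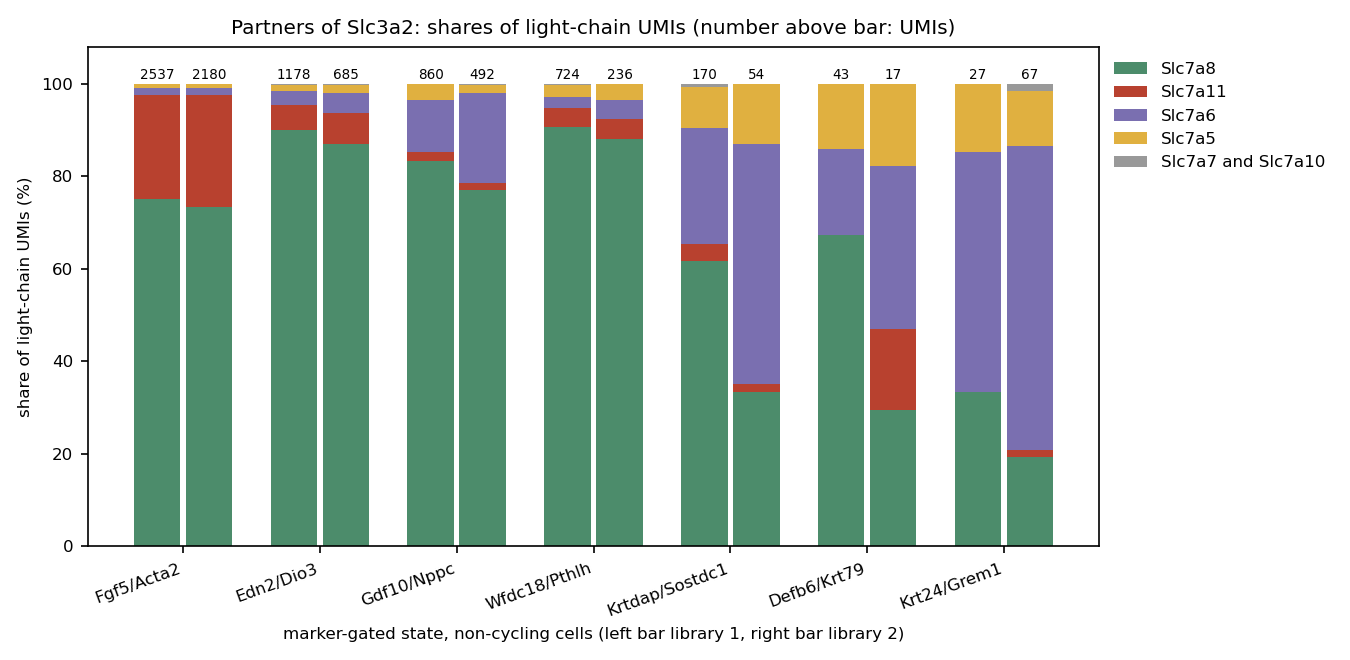
Share of each light chain (y axis, percent of light-chain UMIs, stacked to 100) in the non-cycling cells of 7 states, 1 bar per library (x axis), with the number of UMIs above each bar. Slc7a8 is the largest share in the 4 larger states, Slc7a11 reaches 22.4% and 24.2% in Fgf5/Acta2, and Slc7a6 is the largest in both libraries of Krt24/Grem1 (51.9% and 65.7%), where the bars rest on 27 and 67 UMIs, and in library 2 of Krtdap/Sostdc1 and Defb6/Krt79.

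Slc1a3, the sodium-driven glutamate and aspartate carrier, stood at 329 and 364 CPM in Fgf5/Acta2, 224 and 211 in Edn2/Dio3, 69.0 and 74.3 in Gdf10/Nppc and 28.1 and 39.5 in Wfdc18/Pthlh. These 4 states did not overlap, and the step from Edn2/Dio3 up to Fgf5/Acta2 was 1.47-fold in library 1 and 1.72-fold in library 2. Krtdap/Sostdc1 (24.8 and 7.07 CPM) and Defb6/Krt79 (42.0 and 5.56 CPM) overlapped their neighbours. Krt24/Grem1 held 3 Slc1a3 UMIs in each library (8.56 and 1.80 CPM), which puts Fgf5/Acta2 38.4 times higher in library 1 (counting interval 13.1 to 186) and 203 times higher in library 2 (69.1 to 984). A Slc1a3 UMI was found in 72.6% and 77.6% of Fgf5/Acta2 cells at 5000 UMIs, in 60.2% and 57.4% of Edn2/Dio3 cells, in 24.8% and 29.4% of Gdf10/Nppc cells, and in 2.08% and 0% of fibroblast-marker cells. Slc1a5, the glutamine and neutral amino acid carrier of the same family, was at most 19.4 CPM in any of these states, with 19.0 and 16.1 CPM in Fgf5/Acta2 and 5.66 and 6.59 CPM in Wfdc18/Pthlh. Its joint test passed the threshold (adjusted p = 0.03036) but missed it without the library term (0.07734) and with the highest doublet scores left out (0.06541).

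Slc7a1, the arginine and lysine carrier, had another order. It was 218 and 161 CPM in Edn2/Dio3 and 187 and 188 CPM in Fgf5/Acta2, which overlapped, then 118 and 124 in Gdf10/Nppc and 44.0 and 28.3 in Krtdap/Sostdc1. In Wfdc18/Pthlh it was 9.58 and 15.4 CPM, overlapping Krt24/Grem1 (11.4 CPM in each), although Slc3a2, Slc7a8 and Slc1a3 were each higher in Wfdc18/Pthlh than in Krt24/Grem1 in both libraries. A UMI of Slc7a1 was found in 4.94% and 9.29% of Wfdc18/Pthlh cells at 5000 UMIs and in 37.6% and 37.2% of Gdf10/Nppc cells. Slc38a2, the small neutral amino acid carrier, had the highest mean level of the 8 in every state and a fold of 3.61 between the highest and lowest mean, less than the other genes that reached 100 CPM. Its levels were 1876 and 1681 CPM in Fgf5/Acta2, 1703 and 1639 in Edn2/Dio3, 1186 and 689.6 in Gdf10/Nppc, 897 and 823 in Wfdc18/Pthlh, 894 and 750.5 in Krt24/Grem1, 739 and 529.9 in Krtdap/Sostdc1 and 616 and 369.6 in Defb6/Krt79. The upper pair of states overlapped each other and stood clear of the rest.

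Each state was then tested against the mean of the other 6 in the same fit. That mean is taken over log-scale coefficients, so a state with few UMIs weighs as much as any other. The results below are log2 fold changes ± SE with adjusted p from edgeR's quasi-likelihood test. The SE is not an output of that test but was worked back as the absolute log2 fold change over the square root of F. In Fgf5/Acta2, 7 of the 8 carriers were called, all higher, against 28.2% of all genes (15.1% higher and 13.1% lower). The changes were 5.28 ± 0.234 for Slc7a11 (adjusted p = 2.673e-16), 3.44 ± 0.248 for Slc1a3 (7.26e-12), 2.74 ± 0.252 for Slc7a8 (1.158e-09) and 2.19 ± 0.186 for Slc7a1 (2.503e-10). The reference for Slc7a11 includes Krt24/Grem1, with 0 and 1 UMIs. The size of its change depends on that low coefficient, here and in Edn2/Dio3. Slc3a2 rose by 1.94 ± 0.145 (1.541e-11), Slc1a5 by 1.02 ± 0.284 (0.007211) and Slc38a2 by 0.98 ± 0.109 (3.704e-08). Within library 1 and library 2 alone, by log2 CPM and not by the fit, the change of Slc1a5 was 1.55 and 0.55 and that of Slc7a8 2.17 and 3.37. The median change of the 8 genes was 2.06, and that of all genes 0.02.

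In Edn2/Dio3, 6 carriers were called, all higher, where 19.8% of all genes were called (11.1% higher and 8.68% lower). The largest change was that of Slc1a3, 2.71 ± 0.268 (adjusted p = 1.283e-08, edgeR), followed by Slc7a1 with 2.22 ± 0.192, Slc7a8 and Slc7a11 with 2.15 each, Slc3a2 with 1.37 ± 0.151 and Slc38a2 with 0.92 ± 0.110. In Gdf10/Nppc, 4 carriers were higher where 11.5% of genes were called (9.7% higher and 1.84% lower), Slc7a1 by 1.65, Slc7a8 by 1.26, Slc1a3 by 0.99 and Slc3a2 by 0.62. By mean level each of these 4 stood below both Fgf5/Acta2 and Edn2/Dio3. The reference for Slc1a3 includes Krt24/Grem1, which had 3 UMIs in each library. Without the library term only 1 of these 4, Slc7a1, passed.

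Krt24/Grem1 was the reverse, with 5 carriers called, all lower, where 19.3% of genes were called (10.2% higher and 9.12% lower). Slc1a3 fell by 4.31 ± 0.685 (adjusted p = 2.352e-05, edgeR, from 3 UMIs in each library), Slc7a8 by 3.60 ± 0.531, Slc7a1 by 2.26 ± 0.380 and Slc3a2 by 1.56 ± 0.206. Slc7a11 was also called (0.002505), but its fitted change of -4.33 rests on 0 and 1 UMIs, depends on the prior count of the fit and is no bound. Slc38a2, Slc1a5 and Slc7a5 did not pass there. In Wfdc18/Pthlh 1 carrier was called, Slc7a1, which fell by 2.41 ± 0.292 (2.919e-07) where 18.5% of genes were called (10.9% higher and 7.62% lower). That count was 4 when the Krtdap/Sostdc1 state was left out of the fit, and 3 after thinning.

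In Defb6/Krt79, 3 carriers were lower where 9.36% of genes were called (6.5% higher and 2.86% lower), Slc38a2 by 1.01 ± 0.137, Slc3a2 by 1.1 ± 0.208 and Slc7a8 by 1.56 ± 0.496 on the log2 scale, the last losing its call in 4 of the other settings. In Krtdap/Sostdc1, 3 were lower where 5.44% of genes were called (4.02% higher and 1.42% lower), Slc3a2 by 0.82, Slc38a2 by 0.68 and Slc1a3 by 1.61 on the log2 scale (adjusted p = 0.04887), and none of the 3 passed without the library term. Carrier levels in that state differed between the libraries, as for Slc3a2 and Slc7a8 above, and without it Fgf5/Acta2 still had 7 carriers called.

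**Figure D3:**
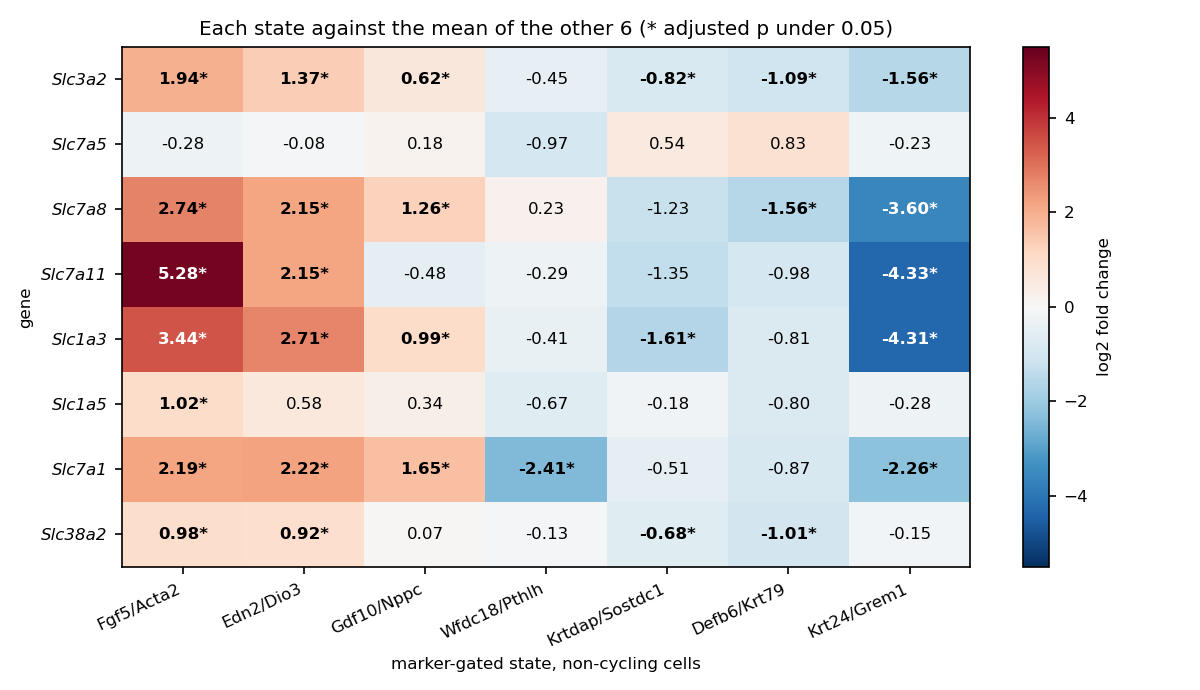
Heat map of the log2 fold change of each carrier gene (rows) in non-cycling cells of each state against the mean of the other 6 states (columns), from the edgeR fit over both libraries. An asterisk marks adjusted p under 0.05. Fgf5/Acta2 and Edn2/Dio3 are positive for the 7 and 6 genes called, Krt24/Grem1 is negative for the 5 called, and Wfdc18/Pthlh has a single asterisk, at Slc7a1.

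Cycling cells were compared with non-cycling cells of the same state in the 4 states that hold all 3 cycle classes (Fgf5/Acta2, Edn2/Dio3, Gdf10/Nppc and Wfdc18/Pthlh). None of the 8 carriers was called by edgeR, with 1 at an unadjusted p under 0.05, while 14.7% of all genes were called (7.94% higher and 6.75% lower), and DESeq2 also called 0 of the 8. The change of Slc38a2 was -0.15 ± 0.0665 log2 units (adjusted p = 0.142), that of Slc3a2 -0.16 ± 0.0937, that of Slc7a8 -0.15 ± 0.157 and that of Slc1a3 0.02 ± 0.155. Slc7a1 changed by 0.25 ± 0.1255, Slc7a11 by 0.16 ± 0.1914, Slc1a5 by 0.10 ± 0.1905 and Slc7a5 by -0.04 ± 0.2369. With bounds of 2 SE on either side, Slc3a2 lay between -0.35 and 0.02, Slc1a3 between -0.29 and 0.33 and Slc7a1 between 0.003 and 0.51. These are small beside the differences between states, although a call that is missing does not show that the classes are alike. Cycle class rests on the number of markers detected, with no scaling for depth, and G2/M cells were deeper than non-cycling cells. In Edn2/Dio3 of library 1 the medians were 12169 and 7751 UMIs. When cells were first thinned to 5000 UMIs and then gated again, 3 carriers were called lower in cycling cells. Slc1a3 was lower by 0.49, Slc3a2 by 0.34 and Slc38a2 by 0.27 on the log2 scale. That fit had no Gdf10/Nppc state in the comparison, and leaving that state out without thinning called 0 of the 8.

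**Figure D4:**
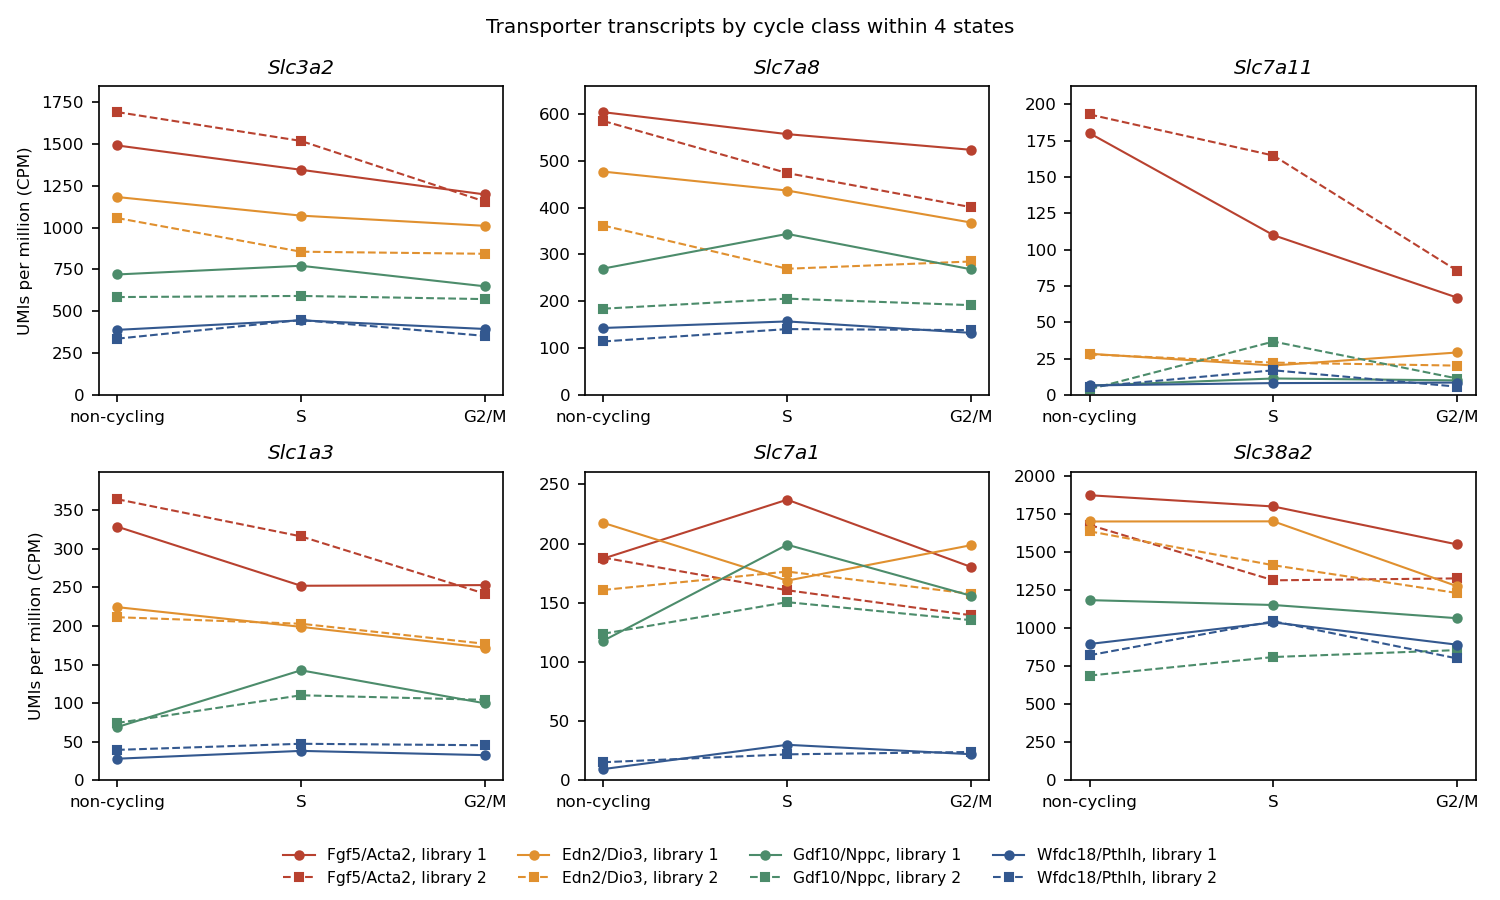
Level of 6 carrier genes (y axes, CPM, linear from 0) in non-cycling, S and G2/M cells (x axis) of the 4 states that hold all 3 classes. Solid lines are library 1 and dashed lines library 2. The order of the states holds across the classes for Slc3a2, Slc7a8 and Slc1a3, and Slc7a11 in Fgf5/Acta2 goes from 180.1 and 193 CPM in non-cycling cells to 66.9 and 85.4 CPM in G2/M cells.

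Within the Fgf5/Acta2 state, in a comparison added after the sums were seen, Slc7a11 was lower in cycling cells. It was 180.1 and 193 CPM in non-cycling cells, 109.9 and 165 CPM in S cells and 66.9 and 85.4 CPM in G2/M cells, so that the classes did not overlap and each library had the same order. The contrast was -0.90 ± 0.211 (adjusted p = 0.009031, edgeR), where 3.09% of genes were called (2.88% higher and 0.212% lower). By log2 CPM and not by the fit, it was -1.09 in library 1 and -0.71 in library 2. The call was lost with DESeq2 (adjusted p = 0.108) and without the library term (0.144). A test of whether the change with cycling differs between the 4 states called none of the 8 carriers and 0.00964% of genes, which was 1 gene. Slc7a11 had an unadjusted p of 0.001428 there and an adjusted p of 0.7481 (edgeR), and 2 of the 8 had an unadjusted p under 0.05, so a difference between states was not shown.

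In Edn2/Dio3 Slc7a11 was 20.3 and 22.2 CPM in S and 29.2 and 20.2 CPM in G2/M cells, beside 28.3 and 27.9 CPM in non-cycling cells. In Gdf10/Nppc it was 11.3 and 36.7 CPM in S and 9.98 and 11.3 CPM in G2/M cells. Both classes there stood above the 6.41 and 3.89 CPM of non-cycling cells, from 4 to 17 UMIs a sum. That change of 1.34 ± 0.5393 was not called (adjusted p = 0.1875, edgeR). Slc7a1 was 30.1 and 22.0 CPM in S and 22.1 and 24.0 CPM in G2/M cells of Wfdc18/Pthlh, above its 9.58 and 15.4 CPM in non-cycling cells in both libraries, but this missed the threshold (1.02 ± 0.329, adjusted p = 0.0838, edgeR). Between G2/M and S cells of the same state no carrier was called by edgeR (7.04% of genes were, 4.81% higher and 2.23% lower), with 4 at an unadjusted p under 0.05, and DESeq2 called 1, Slc38a2 (-0.25). Slc38a2 stood at -0.24 ± 0.0784 with edgeR (adjusted p = 0.0627). The others with an unadjusted p under 0.05 were Slc7a5 (0.72 ± 0.3497), Slc7a11 (-0.59 ± 0.26) and Slc3a2 (-0.25 ± 0.1113). Slc1a3 (-0.28), Slc7a1 (-0.25), Slc7a8 (-0.21) and Slc1a5 (0.08) had larger p-values. The Krt25/Krt71 state, gated by keratins of the inner root sheath, was mostly in G2/M (48 of 60 and 49 of 55 cells). In those G2/M cells Slc3a2 was 262 and 342 CPM, Slc7a8 150.05 and 136 CPM, Slc1a3 45.5 and 48.1 CPM and Slc7a11 11.8 and 13.0 CPM. Over all cycle classes this state had medians of 20855 and 19332 UMIs, and the fibroblast markers summed to 509 and 530 CPM. Whether its barcodes mix cell types was not tested. Its G2/M cells entered the fit but none of the comparisons above.

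Other genes of amino acid handling were taken from lists. Of 36 other amino acid carriers, 14 passed the expression filter and 9 of them were called in the joint test of states, where 45.4% of all genes were. In Fgf5/Acta2, 3 of the 14 rose and 1 fell, a share near the 28.2% of all genes called there. They were Slc38a4 (1.91 ± 0.342), a small neutral amino acid carrier, Slc1a4 (1.41 ± 0.266), which carries alanine, serine and cysteine, Slc6a6 (0.83 ± 0.189), the taurine carrier, and Slc7a6 (-0.87 ± 0.255). Slc1a4 also rose in Edn2/Dio3 (1.54), where it was the only one called and 19.8% of all genes were called. Krt24/Grem1, where 5 of the 8 carriers above were lower, had 5 of the 14 higher and none lower, beside 19.3% of all genes called. Among the 5 were Slc38a4 (1.57), Slc6a6 (0.92) and Slc16a10 (3.96, from 8.56 and 13.8 CPM), an aromatic amino acid carrier. Slc6a14 was also called there but had 17.1 CPM in library 1 and 0 in library 2. In Wfdc18/Pthlh 3 of the 14 were called, a share near the 18.5% of all genes. All 3 fell, Slc7a6 by 2.43, Slc6a6 by 1.81 and Slc38a4 by 3.17. In Krtdap/Sostdc1 4 rose, Slc6a6 (0.89), Slc7a6 (1.03), Slc38a4 (1.68) and Slc7a2 (1.72), where 5.44% of all genes were called. In Gdf10/Nppc 2 rose, Slc7a6 (1.48) and Slc7a2 (2.21), an arginine carrier, a share near the 11.5% of all genes called there.

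Of 16 genes of glutathione and related redox metabolism, all were tested and 13 called in the joint test, where 45.4% of all genes were. In Fgf5/Acta2, 7 rose and 3 fell, where 28.2% of all genes were called. The median of the list was 0.21 where that of all genes was 0.02. Ggt1, which splits extracellular glutathione, was 211 and 335 CPM there (4.92 ± 0.230, adjusted p = 6.739e-16, edgeR), and Gclm, the regulatory subunit of the first enzyme of glutathione synthesis, was 656.5 and 925 CPM (1.70 ± 0.210). Txnrd1, a thioredoxin reductase, rose by 0.95 and thioredoxin Txn1 fell by 1.22. In Edn2/Dio3 3 of the 16 were called, a share near the 19.8% of all genes. Ggt1 (3.24) and glutathione reductase Gsr (1.72) rose there and Txn1 fell by 1.14. In Gdf10/Nppc 6 rose and none fell, where 11.5% of all genes were called. Among the 6 were Txnrd1 (1.25), Hmox1 (1.56), Gclm (1.09) and Ggt1 (1.66). In Krt24/Grem1 3 rose and 7 fell, where 19.3% of all genes were called, with Txn1 up by 1.42 and Txnrd1 (-1.96) and Gsr (-2.85) down. In Defb6/Krt79 Gpx4, a lipid peroxide reductase, was 536 and 756 CPM (1.10 ± 0.109).

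Of 23 genes of the amino acid response, 19 were tested and 14 called in the joint test, where 45.4% of all genes were. In Fgf5/Acta2, 5 rose and 4 fell, where 28.2% of all genes were called. Asns, asparagine synthetase, was at 72.8 and 81.9 CPM (2.03 ± 0.189), and Cth, which makes cysteine, at 58.2 and 54.1 CPM (2.03 ± 0.168). Eif4ebp1 changed by 1.22 ± 0.151 and Psph, the last enzyme of serine synthesis, by -1.53 ± 0.154. The list thus moved both ways, and its median was -0.08. In Gdf10/Nppc 4 rose and none fell, Cth (1.33), Atf3 (0.93), Atf4 (0.54) and Eif4ebp1 (0.60), where 11.5% of all genes were called. In cycling cells 4 rose and 3 fell, where 14.7% of all genes were called. The risers were enzymes of serine and one-carbon metabolism, Mthfd2 (1.46 ± 0.192), Shmt2 (0.85), Psat1 (0.93) and Phgdh (0.55). Mthfd2 (0.999) and Psat1 (1.19) were also higher in G2/M than in S cells. In Defb6/Krt79 2 of the 19 rose and none fell, the serine enzymes Psat1 (2.57) and Psph (1.71). That share was near the 9.36% of all genes called there. Of the 14 other carriers tested, 0 were called by edgeR in cycling cells, where 14.7% of all genes were, with 3 at an unadjusted p under 0.05.

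Of 20 cytosolic aminoacyl-tRNA synthetases, all were tested and 4 were called in the joint test, a smaller share than the 45.4% of all genes. In Fgf5/Acta2 2 rose, Eprs (0.52) and Yars (0.66), where 28.2% of all genes were called, and in cycling cells 3 rose, Vars (0.64), Mars (0.52) and Gars (0.29), where 14.7% were. Of 13 genes for glutamate and glutamine enzymes, 12 were tested and 7 called in the joint test, where 45.4% of all genes were. Oat, which makes glutamate from ornithine, was 504.5 and 509 CPM in Fgf5/Acta2 (1.08 ± 0.189) and rose also in Edn2/Dio3 (0.93) and Gdf10/Nppc (1.10), and fell in Krt24/Grem1 (-1.90). Ppat, Cad, Ctps and Got1, of which the first 3 use glutamine for nucleotides, were higher in cycling cells by 0.73, 0.61, 0.42 and 0.42. Of 13 arginine and polyamine genes, 12 were tested and 9 called in the joint test, beside the same 45.4%, with Sat1, which acetylates polyamines, lower in Fgf5/Acta2 (-1.93) and Edn2/Dio3 (-3.75) and higher in Krt24/Grem1 (2.28) and Defb6/Krt79 (3.49). Defb6/Krt79 also had higher Arg2 (3.84), an arginase, and Glul (3.55), which makes glutamine from glutamate. Of 22 genes of amino acid sensing and mTORC1, 20 were tested and 7 called in the joint test, a smaller share than the 45.4% of all genes. In Fgf5/Acta2 4 of them rose and 1 fell, a share near the 28.2% of all genes, and in cycling cells 5 fell and none rose, where 6.75% of all genes fell, among them Rraga (-0.25), Rragc (-0.33), Flcn (-0.96) and Sesn1 (-0.37). None of 23 glutamate receptor genes passed the expression filter.

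Over the 34 sums, the genes whose log2 CPM ran most like each carrier were found by Spearman's rho, as a description, since sums share libraries and depth. Slc3a2 and Slc7a8 were nearest to each other (rho 0.96). Slc1a3 was nearest to Tagln (0.97), a smooth-muscle actin-binding protein gene, Ggt1 (0.97) and Aebp1 (0.97), and Slc7a11 to Basp1 (0.91), Slit3 (0.89) and Fut4 (0.89). Slc7a1 was nearest to Angptl4 (0.91), Cdh3 (0.90) and Pdpn (0.90), and Slc38a2 to Tmem50b, Ghr and Anxa3 (0.90 to 0.89). The scarce genes had weaker neighbours, Cth (0.69) for Slc1a5 and Map2k3 (0.68) for Slc7a5. Between Slc7a5 and the other 7 carriers rho ran from -0.28 to 0.25.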

How the data were processed

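Single-cell RNA was measured in 2 libraries of 1 group. The deposited matrices hold raw UMI counts per gene and barcode, made with Cell Ranger 3.1.0 against mm10 and later analysed with Seurat 3.1, per the submitters' processing notes. The sources used here do not give the gene models or counting settings. Both libraries hold 52344178 and 38678103 UMIs. Barcodes under 1000 genes (1587 and 1543) and then over 10% mitochondrial UMIs (1087 and 496) were removed. RNA free in droplets was not removed. Scrublet (scanpy 1.11.5) called 0 doublets automatically, so doublets stayed in, and leaving out the top-scoring 214 and 131 kept cells was an alternative.

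A state score is the mean over its markers of log(1 + UMIs per 10000), scaled per gene within each library. The highest score had to reach 0.5 with at least 2 markers detected. G2/M cells had at least 3 of 12 markers and S cells at least 4 of 12. Counts summed per state, cycle class and library were fitted in edgeR 4.0.16 (R 4.3.3), quasi-likelihood, two-sided, TMM, with its expression filter, 17 state and cycle coefficients and a library term, leaving 16 residual degrees of freedom and 10374 genes. Sums of one library come from the same cells' preparation, which is why the library term pairs them. A gene was called at an adjusted p under 0.05. DESeq2 1.42.0 was an alternative. Python 3.11.15, numpy 2.4.6, scipy 1.17.1 and matplotlib 3.10.9 were used.

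The carriers and gene lists were chosen with earlier results of these data known. All 8 carriers were tested in every comparison, though the text does not give each value. Genes named from a list were limited to 4 called genes that moved the same way in both libraries (smallest adjusted p). Likeness was limited to the 3 genes most like each carrier. Mars1 was matched as Mars.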

Additional observations from a re-analysis of the deposited data

Results flagged for a closer look

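Cells set aside by their markers of other cell types entered none of the comparisons. Taken over all cycle classes, 3 carrier levels there stood above those of each of the 7 non-cycling states in both libraries. Slc1a5 averaged 43.14 CPM in fibroblast-marker cells (46.0 and 40.3 CPM, from 37 and 27 UMIs) and 43.59 CPM in immune-marker cells (62.5 and 24.7 CPM, from 7 and 5 UMIs). In their non-cycling cells alone it was 52.5 and 47.5 CPM and 62.5 and 23.5 CPM. Slc7a5 averaged 24.06 CPM in melanocyte-marker cells (25.1 and 23.0 CPM, from 4 UMIs in each library). That value does not hold in non-cycling cells, where library 2 had 2 cells and 0 UMIs, and all 4 of its UMIs came from 6 G2/M cells. G2/M keratinocytes reached similar Slc7a5 levels, 23.6 and 19.4 CPM in Krt25/Krt71 and 24.8 CPM in library 2 of Krtdap/Sostdc1. The immune and melanocyte values rest on 10 to 15 and 9 to 12 cells a library. The 5 keratinocyte markers summed to 8020 and 9421 CPM in melanocyte-marker cells, against 725 and 1210 CPM in fibroblast-marker cells. How much of the Slc7a5 in melanocyte-marker cells came from keratinocyte RNA was not tested.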

How the results depend on the processing

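Of the calls of carriers by state, none reversed in any alternative. Leaving out the library term (no replicate block) lowered the genes called to 634 in Gdf10/Nppc, 1339 in Edn2/Dio3, 288 in Krtdap/Sostdc1 and 861 for cycling cells, and the carriers called to 1 in Gdf10/Nppc and 0 in Krtdap/Sostdc1. Thinning to 5000 UMIs gave 1910 genes in Fgf5/Acta2, 1331 in Edn2/Dio3, 1005 for cycling cells and 310 for G2/M against S. Its fit, with cells gated again after thinning, held 26 sums and 7624 genes, without Defb6/Krt79. In Wfdc18/Pthlh the carriers called were 2 with no expression filter, with a score margin of 0.5 or with doublet scores removed, 3 after thinning, and 4 without Krtdap/Sostdc1, an alternative chosen after seeing the data. The cycling comparison called 838 genes with the margin, 2457 with at least 5 cycle markers and 1015 without Gdf10/Nppc (also chosen after seeing the data), and 1 carrier with at least 5 markers and 3 after thinning. G2/M against S called 1 carrier, Slc38a2, with DESeq2, at least 5 markers, doublet scores removed or at least 500 genes. The cause of these shifts was not tested.

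Signs that reversed belonged to uncalled cycling changes (log2). Slc1a3 was -0.0085 with no expression filter, -0.15 with the margin, -0.33 with at least 5 markers, -0.49 after thinning (adjusted p = 0.006807, edgeR) and -0.15 without Gdf10/Nppc. Slc7a11 was -0.23, -0.24, -0.59 and -0.24 under the last 4 of these. Slc7a5 was 0.11 with the margin, 0.28 with at least 5 markers and 0.026 without Gdf10/Nppc, and Slc1a5 -0.23 after thinning and -0.077 without Gdf10/Nppc. For G2/M against S, Slc7a1 was 0.067 with at least 5 markers and 0.18 after thinning, Slc1a3 0.0060 with at least 5 markers, and Slc1a5 -0.041 after thinning. The margin and thinning fits had no Gdf10/Nppc in the cycling comparison, and the fit with at least 5 markers had Krtdap/Sostdc1 in its place. Leaving out either library gives fold changes with no test. Each called change of a carrier by state kept its sign, but 14 such values moved by more than the spread between the libraries. Changes within 1 library were taken from log2 CPM with a prior count of 2 and not from the fit, so those from few UMIs are shrunk. Both values of Slc1a3 in Krt24/Grem1 are smaller in size than its fitted -4.31. How much of these moves came from the change of measure was not tested. In libraries 1 and 2 alone, Slc1a3 was 0.50 and 1.46 in Gdf10/Nppc, -1.31 and -2.34 in Krtdap/Sostdc1 and -2.86 and -3.97 in Krt24/Grem1. Slc3a2 was -0.45 and -1.33 in Krtdap/Sostdc1, Slc7a8 -1.25 and -2.52 in Defb6/Krt79, and Slc7a1 -2.61 and -1.82 in Wfdc18/Pthlh. Depth limits Slc7a5 and Slc1a5, each under 20 CPM in the 7 non-cycling states, and the low states of Slc7a11 and Slc1a3.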
